A study of Mus musculus with 8 samples.

Results

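The β2 and other leukocyte integrins were followed here through 10 genes: Itgam, Itgax, Itgal, Itgb2, Itgb5, Itgav, Itga4, Itga6, Itgb1 and Itgb7. They were listed by name, under a rule that sets no measured value, but with earlier results of these data known. All 10 were found among the 20308 gene symbols of the expression files. CD11b+ cells of 4 mice per genotype, control and CSF1 OE, had been sequenced as RNA at 14 or 15 days of age, with 1 library per mouse, to ask how increased CSF1 changed gene expression in microglia. All 8 mice were F1 offspring of C57Bl/6 and CD1. CSF1 OE mice over-expressed secreted CSF1, the growth factor that signals through CSF1R on microglia, in a subset of GFAP+ cells by means of the TRE/tTA system, and control mice had the same background. Whether the controls carried 1 of the transgenes is not given in the sources used here. The cells were pulled from the right brain hemisphere with magnetic beads against CD11b after Percoll removal of myelin, so Itgam, which encodes CD11b, is the gene of the selection antigen. In bulk RNA of this kind, fewer cells of a type and less RNA per cell cannot be told apart.

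Integrins are cell surface receptors made of 1 α and 1 β chain that bind other cells, complement or the extracellular matrix. The β2 chain, CD18, is restricted to leukocytes and pairs with αL, αM, αX or αD. αM with β2 is the complement receptor CR3, by which microglia take up complement-tagged material, and αX with β2 is CR4, whose α chain CD11c is widely used as a marker of dendritic cells and of a subset of microglia in development, ageing and disease. The β1, β5 and β7 chains pair with other α chains, among them α4, α6 and αV, for adhesion to laminin, fibronectin, vitronectin and vascular ligands.

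Libraries held between 12908195 and 15475488 expected counts in control mice and between 12053280 and 14356538 in CSF1 OE mice. Levels are given as CPM on the TMM-scaled library size. Genes were tested with the quasi-likelihood test of edgeR over the 13407 genes that passed its filter on low counts, and p-values were adjusted over all of them by Benjamini-Hochberg. A call needed an adjusted p below 0.05 together with a fold change below 0.7 or above its reciprocal. All 10 integrins passed the filter. The fit called 59 genes, 0.44% of those tested, of which 52 were higher (0.388%) and 7 lower (0.0522%) in CSF1 OE mice. Of all genes tested, 6002 had a positive and 7405 a negative log2 fold change, the background for the counts of direction below. Values per mouse are listed in the order 1827, 1872, 1874 and 1934 for control and 1931, 1932, 1936 and 2019 for CSF1 OE, which are the animal numbers. The 10 homeostatic microglia markers, among them P2ry12, Tmem119 and Csf1r, summed to between 21514 and 38374 CPM in control and between 27734 and 39175 CPM in CSF1 OE libraries. Of these markers edgeR called none (1 lower at an unadjusted p under 0.05, beside 6.44% of all genes). DESeq2, an alternative that called 3.27% of the genes it tested, called Fcrls lower. Csf1 itself ranged from 139 to 364 CPM in control and from 167 to 400.1 CPM in CSF1 OE libraries, with overlap. The GFAP+ cells that carry the active transgene were not the cells selected. Control 1934 and CSF1 OE 2019 stood at the 2 ends of the microglia sum, and values that moved most without them are also given without them.

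The genes for αL, αM, αX and αD lie in one region of chromosome 7. In GRCm38, Itgam spans chr7:128062640-128118491 and Itgax chr7:128129547-128150657, both on the forward strand with 30 exons in the principal transcript. Itgad follows at chr7:128154376-128223816, and Itgal lies upstream at chr7:127296260-127335138. The promoters of Itgam and Itgax are shown, a choice made after their values were seen. These 300 bases run from 250 bases before to 50 bases after the RefSeq transcript start (GRCm38.p6, forward strand, 5′ to 3′). Capitals mark matches to the PU.1 box GAGGAA and to the AP-1 motif TGAGTCA on either strand. PU.1 is the defining transcription factor of myeloid cells.
Itgam, chr7:128062390-128062689: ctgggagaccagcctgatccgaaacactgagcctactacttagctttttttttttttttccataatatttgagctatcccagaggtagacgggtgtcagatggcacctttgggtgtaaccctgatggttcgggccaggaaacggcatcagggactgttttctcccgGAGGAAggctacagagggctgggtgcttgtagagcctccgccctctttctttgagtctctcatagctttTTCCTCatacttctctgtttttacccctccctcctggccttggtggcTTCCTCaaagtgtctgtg
Itgax, chr7:128129300-128129599: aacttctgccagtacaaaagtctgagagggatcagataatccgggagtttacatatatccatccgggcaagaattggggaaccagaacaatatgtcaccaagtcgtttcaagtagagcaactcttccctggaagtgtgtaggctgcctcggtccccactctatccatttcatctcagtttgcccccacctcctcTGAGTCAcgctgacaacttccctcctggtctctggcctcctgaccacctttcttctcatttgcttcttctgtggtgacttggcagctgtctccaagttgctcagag

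The Itgam window held 3 matches to GAGGAA or its reverse complement TTCCTC, beginning at −84, −15 and 33 relative to the start, and none to AP-1. The Itgax window held no match to the PU.1 box and 1 match to TGAGTCA at −56. Of all 32851 RefSeq promoter windows of this length, 28.3% held the PU.1 box and 5.20% the AP-1 motif. The only AP-1 match among these genes was that of Itgax, whose window has no PU.1 match, so an overlap was not possible. Windows were at hand for 7 of the 10 genes, the others being Itga6, Itgal and Itgb2. Of the remaining 5, Itgav held 2 matches to the PU.1 box, Itgb1 and Itgb7 held 1 each, and Itga4 and Itgb5 held none. These are matches of letters. Binding was not measured, and no link between the matches and the levels of these genes was tested.

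Of the 10 integrins, Itgax was the one that was called, and it rose in CSF1 OE mice (1 of 10, beside 0.388% of all genes tested called higher). The list was chosen with earlier results of these data known, so this contrast is descriptive. Itgax, the αX chain, had 10.8, 12.1, 11.3 and 6.92 CPM in the control mice. In the CSF1 OE mice it had 51.4, 28.9, 28.5 and 24.5 CPM. Every CSF1 OE mouse thus lay above every control mouse, a separation in that direction that 6.84% of all genes showed, with CSF1 OE 1931 far above the other 3 of its genotype. Mean Itgax rose from 10.3 ± 2.31 to 33.3 ± 12.2 CPM (SD, n = 4 each), 3.24 times as high. Its log2 fold change was 1.70 (SE 0.27, 95% interval 1.09 to 2.30), with an adjusted p of 0.0431 by edgeR. Among all genes tested, 30, Itgax included, had a log2 fold change at least as large, 0.224% of the total. The counts behind these values were 117 to 175 in control and 277 to 626 in CSF1 OE libraries.

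**Figure D1:**
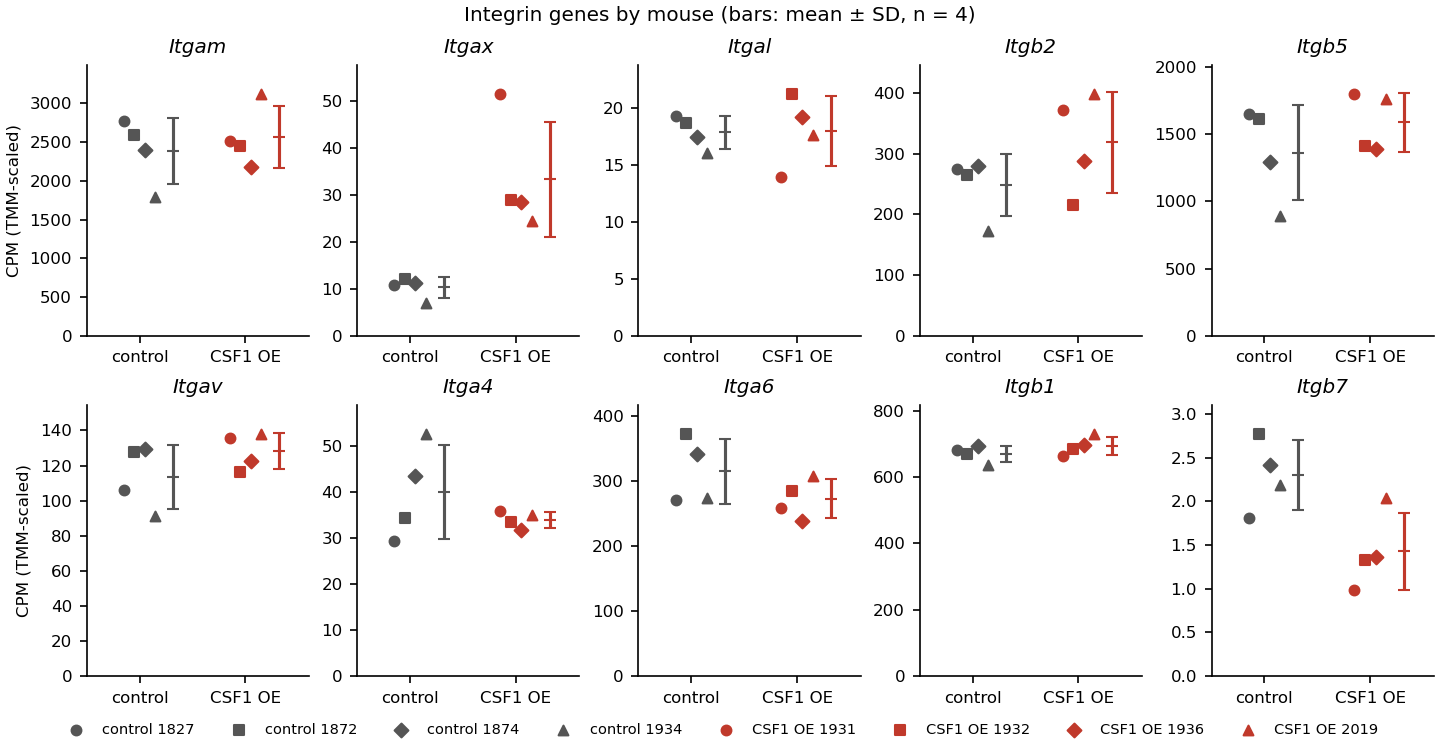
CPM on a linear axis from 0 for each of the 10 integrin genes, with 1 point per mouse (grey, control; red, CSF1 OE; symbols name the animals) and bars for the mean ± SD of 4 mice. The genotypes are apart for Itgax, at 6.92 to 12.1 against 24.5 to 51.4 CPM, and overlap for the other 9 genes.

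The size of the Itgax difference held while its adjusted p moved across the threshold. Leaving out each mouse in turn gave log2 fold changes from 1.41, without CSF1 OE 1931, to 1.82, without CSF1 OE 2019. The adjusted p of edgeR stayed under 0.05 in the fits without control 1827 (0.0480) and without CSF1 OE 2019 (0.0433). In the fits without controls 1872, 1874 and 1934 it was 0.174, 0.182 and 0.0785, and in those without CSF1 OE 1931, 1932 and 1936 it was 0.102, 0.0694 and 0.117. The unadjusted p was at most 0.000585 in these 8 fits. Without control 1934 and CSF1 OE 2019 together, the log2 fold change was 1.68 and the adjusted p of edgeR was 0.0375. The animal numbers also fall into ranges that overlap with genotype, and within 1931 to 1936 the single control mouse had 6.92 CPM against 28.5 to 51.4 CPM in 3 CSF1 OE mice. Outside that range 3 control mice had 10.8 to 12.1 CPM against 24.5 CPM in the single CSF1 OE mouse.

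**Figure D2:**
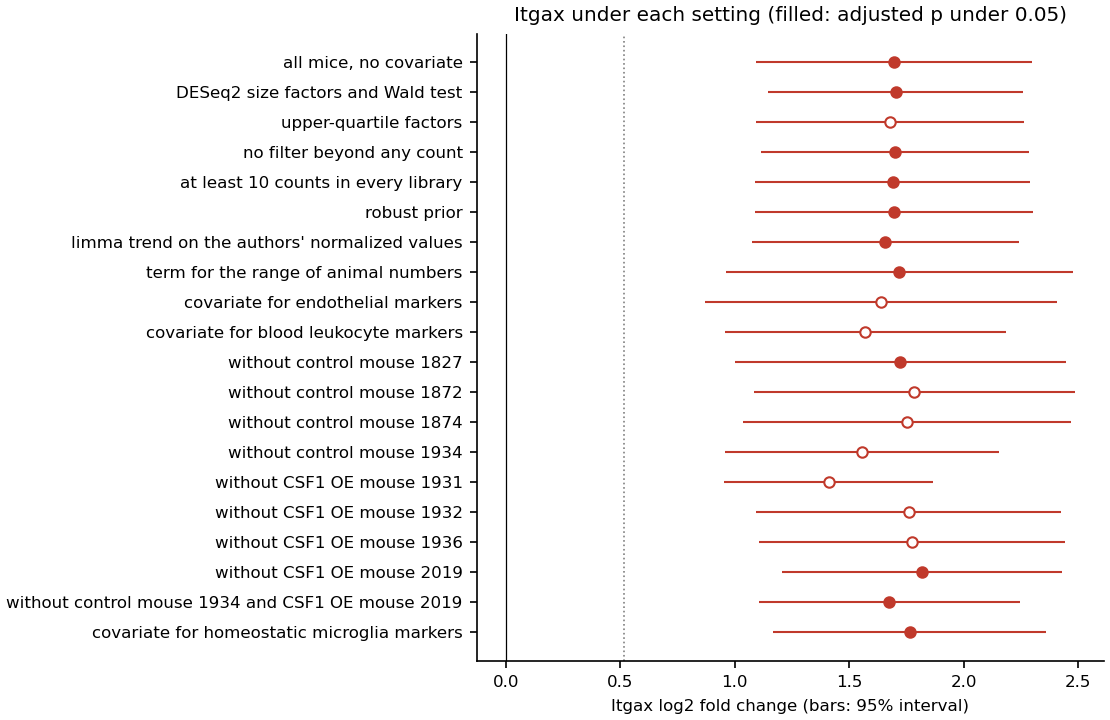
Log2 fold change of Itgax in CSF1 OE against control mice with its 95% interval under the reported fit and 19 alternatives; filled points have an adjusted p under 0.05, the solid line marks no change and the dotted line the upper fold threshold. All values lie between 1.41 and 1.82, and 10 of the 19 alternatives keep an adjusted p under 0.05.

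Itgax has a close copy in Itgad, the αD chain, with which it shares 512 of its 4790 distinct stretches of 31 bases (10.7%). Of the 4536 stretches of Itgad, 1192 (26.3%) recur in other genes, 512 of them in Itgax. Reads from shared stretches can be divided between the genes by the estimation of counts, so the values of both are uncertain. Itgad is far lower than Itgax, so its level and difference are the more uncertain. How many of its counts come from Itgax reads was not tested. Itgad had 0.941, 1.24, 1.44 and 1.24 CPM in control and 2.14, 2.57, 2.04 and 1.505 CPM with CSF1 OE (14 to 35 counts in all). Its log2 fold change of 0.76 was not called (edgeR adjusted p = 0.209). The genotypes did not overlap, as for 6.84% of all genes in that direction. Summed, Itgax and Itgad came to 11.5 ± 2.33 CPM in controls and to 35.4 ± 12.3 CPM with CSF1 OE (SD, n = 4 each), a ratio of 3.07.

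Itgam, the αM chain and the antigen of the pull-down, had 2771, 2591, 2392 and 1793 CPM in control mice. It had 2512, 2447, 2184 and 3117 CPM in CSF1 OE mice. The genotypes overlapped, with control 1934 lowest and CSF1 OE 2019 highest of all 8. The log2 fold change was 0.10 (SE 0.17, 95% interval −0.29 to 0.49; edgeR adjusted p = 0.786). It was 0.0016 without control 1934, −0.0030 without CSF1 OE 2019 and −0.11 without both. As Itgam selected the cells, its level is not an independent measure of the population. GENCODE M21 also places a gene model, Gm49368, over Itgam on the same strand, and 68.3% of the 31-base stretches of Itgam recur elsewhere, nearly all of them in that model.

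Itgal, the αL chain of the lymphocyte function-associated antigen LFA-1, had 19.3, 18.7, 17.4 and 16.03 CPM in control mice and 13.9, 21.2, 19.2 and 17.6 CPM in CSF1 OE mice. The lowest and the highest value both came from CSF1 OE mice, so the genotypes overlapped throughout. Its log2 fold change was 0.01 (95% interval −0.31 to 0.33; edgeR adjusted p = 0.975).

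The α chains of the β2 family were therefore unequal in their differences, which a ratio within each library shows without any scaling between libraries. Per kilobase, Itgax stood at 0.449%, 0.536%, 0.545% and 0.443% of Itgam in control mice and at 2.35%, 1.36%, 1.499% and 0.904% in CSF1 OE mice. Every CSF1 OE mouse was again above every control mouse. The log2 ratio was higher by 1.55 in CSF1 OE mice (two-sided exact permutation test, p = 0.0286, the smallest that 70 assignments of 4 against 4 mice allow). The ratio was chosen with earlier results on Itgax known, and its denominator is the gene of the selection antigen. This p therefore restates the separation of Itgax and adds no independent evidence. In level, 10.3% of all genes tested separated the genotypes in either direction. Of the summed level per kilobase of the 4 α chains of this family, Itgam made up 98.8% ± 0.0881 in control and 97.8% ± 0.585 in CSF1 OE mice. Itgax made up 0.487% ± 0.0541 and 1.49% ± 0.582 (SD, n = 4 each), so in both genotypes nearly all α chain transcripts were those of αM.

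Itgb2, the shared β2 chain, had 275, 266, 280.5 and 172 CPM in control mice and 373, 216, 288 and 398 CPM in CSF1 OE mice. In 3 of 4 CSF1 OE mice it was above every control mouse, and CSF1 OE 1932 was below 3 of the 4 controls. The log2 fold change was 0.36 (SE 0.22, 95% interval −0.13 to 0.85) and was not called (edgeR adjusted p = 0.439). Control 1934 was far below the other controls, and without it the log2 fold change was 0.23. Without it and CSF1 OE 2019 it was 0.11. When the range of animal numbers was added to the model it was 0.65 and was called (edgeR adjusted p = 0.0458), in a fit that called 9.5% of all genes. Per kilobase, Itgb2 stood at 15.004% to 18.4% of Itgam in control and at 13.8% to 23.2% in CSF1 OE mice.

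**Figure D3:**
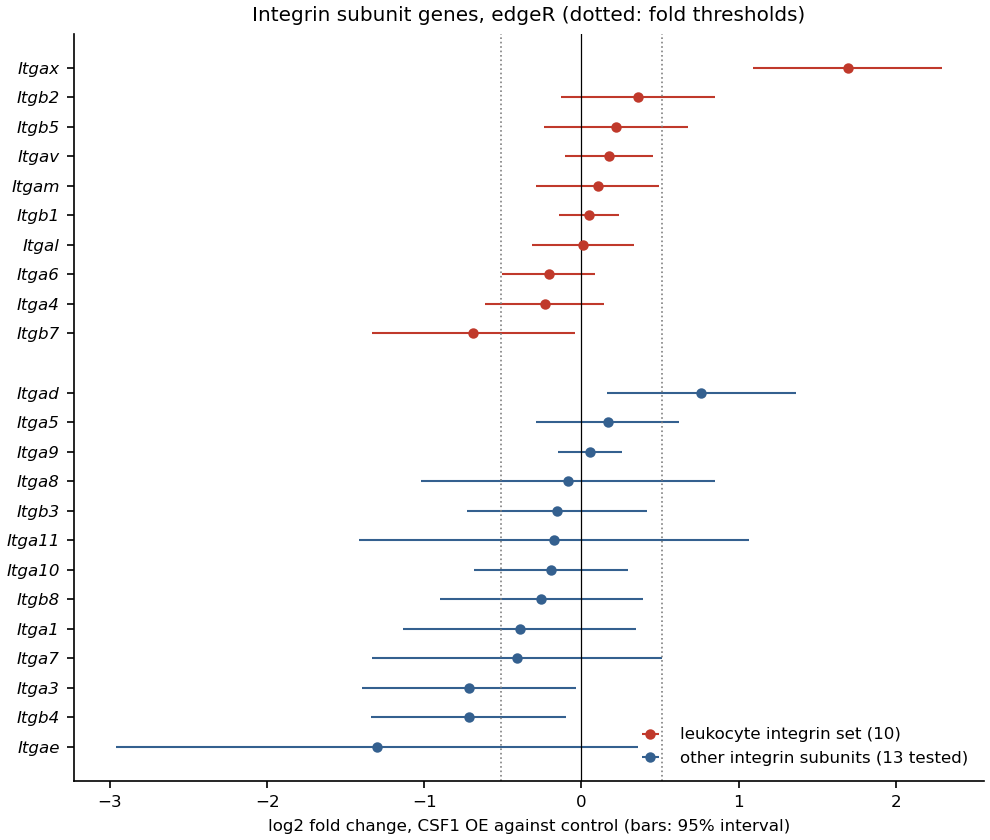
Log2 fold change, CSF1 OE against control (4 mice each), with 95% intervals from edgeR for the 10 integrin genes (red) and the 13 other integrin subunits that passed the filter (blue); dotted lines mark the fold thresholds. Itgax at 1.70 is the one interval wholly above the upper threshold, and the intervals of Itgb2, Itgam, Itgal, Itgb5, Itgav, Itgb1, Itga4 and Itga6 include 0.

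The αV and β5 chains form a receptor for vitronectin and for the bridging protein MFGE8 on dying cells, and Itgb5 is a gene that microglia express strongly. Itgb5 had 1652, 1612, 1296 and 889 CPM in control mice and 1796, 1408, 1385 and 1757 CPM in CSF1 OE mice. Control 1934 was again the lowest and the genotypes overlapped (log2 fold change 0.22, 95% interval −0.24 to 0.68; edgeR adjusted p = 0.619). Without control 1934 the log2 fold change was 0.07, and without it and CSF1 OE 2019 it was 0.02. Itgav, which encodes the αV chain, had 106, 128, 129 and 91.1 CPM in control and 136, 116, 123 and 138 CPM in CSF1 OE mice. It did not pass the test either (log2 fold change 0.18, 95% interval −0.10 to 0.45; edgeR adjusted p = 0.503). Without control 1934 its log2 fold change was 0.10, and without that mouse and CSF1 OE 2019 it was 0.06. Per kilobase, Itgb5 exceeded Itgav by between 21.0 and 33.5 times in control and between 24.3 and 28.4 times in CSF1 OE mice.

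Itgb1, the β1 chain that most matrix-binding integrins share, was the steadiest of the 10. It had 679.6, 669.8, 694 and 637 CPM in control mice and 664, 683, 696 and 728 CPM in CSF1 OE mice. Its log2 fold change was 0.05 and its 95% interval, −0.14 to 0.24, was the narrowest of the 10 (edgeR adjusted p = 0.794). Itga6, the α6 chain of laminin receptors, had 271, 371, 342 and 274 CPM in control and 258, 284, 239 and 308 CPM in CSF1 OE mice, with overlap (log2 fold change −0.21, 95% interval −0.51 to 0.09; edgeR adjusted p = 0.460). Endothelial cells also express Itga6.

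Itga4, the α4 chain, which binds VCAM1 with β1 and MAdCAM1 with β7, had 29.4, 34.4, 43.5 and 52.5 CPM in control mice. It had 35.7, 33.4, 31.8 and 34.9 CPM in CSF1 OE mice. The CSF1 OE values thus lay inside the control range (log2 fold change −0.23, 95% interval −0.62 to 0.15; edgeR adjusted p = 0.517). Without control 1934, which was the highest, the log2 fold change was −0.06. The gene overlaps Cerkl on the opposite strand, and the library kit used does not mark strand, so reads of the pair cannot be told apart where they overlap.

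Itgb7, the β7 chain of lymphocyte homing, was the lowest of the 10, at 1.81, 2.77, 2.42 and 2.19 CPM in control and 0.986, 1.32, 1.36 and 2.04 CPM with CSF1 OE (12 to 40 counts in all). It was lower than every control in 3 of 4 CSF1 OE mice, and CSF1 OE 2019 lay above control 1827. The log2 fold change was −0.69 (SE 0.29, 95% interval −1.33 to −0.04) and was not called (edgeR adjusted p = 0.275). Its unadjusted p of 0.0398 in the fit of edgeR was nominal, since 16.5% of all genes were under 0.05 and 6.44% were so with a lower value in CSF1 OE mice.

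By count, 7 of the 10 integrins were higher and 3 lower in CSF1 OE mice, with a median log2 fold change of 0.08 beside −0.03 over all genes tested. Without Itgax the rest had log2 fold changes between −0.69 and 0.36.

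In level per kilobase of principal transcript, averaged over all 8 mice, the order was Itgam (533 CPM per kilobase), Itgb5 (449), Itgb1 (179), Itgb2 (95.4), Itga6 (68.1), Itgav (17.1), Itgax (5.39), Itga4 (3.78), Itgal (3.45) and Itgb7 (0.694). Over the 8 mice, the ranges of Itgam and Itgb5 overlapped, as did those of Itgb2 and Itga6 and those of Itgax, Itga4 and Itgal, so their order is not resolved. In control mice Itgax, at 1.71 to 2.99 CPM per kilobase, was below every control value of Itga4 and Itgal. In CSF1 OE mice Itgax, at 6.06 to 12.7 CPM per kilobase, was above every value of both. With the union of all annotated exons as the length, Itgal and Itga4 changed places, the ranges of Itgb2 and Itga6 no longer overlapped, those of Itgav (8.48 to 12.8) and Itgax did over the 8 mice, and Itgax in control mice (1.44 to 2.52 CPM per kilobase) overlapped Itga4 (2.10 to 3.75) and Itgal (2.44 to 2.94). In CSF1 OE mice Itgax, at 5.10 to 10.7, stayed above both.

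**Figure D4:**
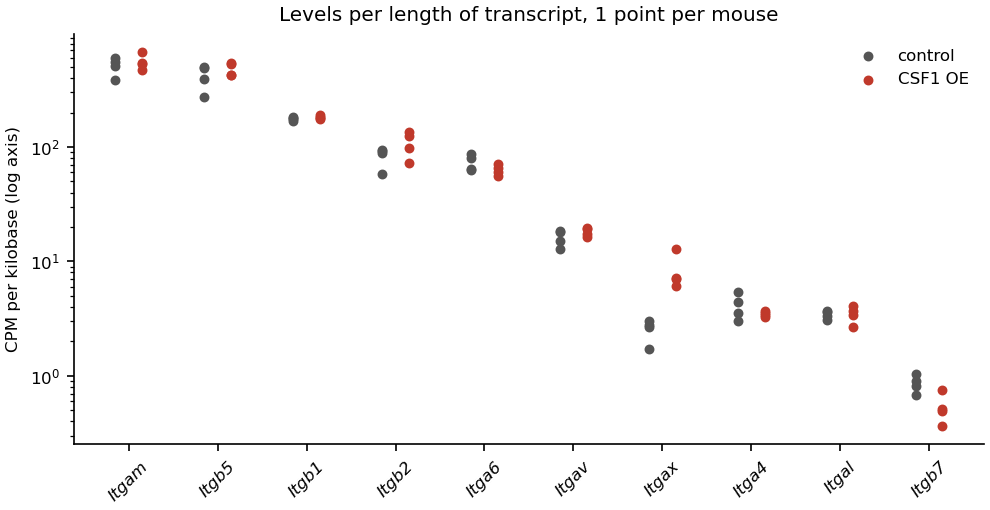
Level of the 10 integrin genes in CPM per kilobase of principal transcript (log axis), 1 point per mouse, grey for control and red for CSF1 OE, ordered by the mean over 8 mice. Itgam and Itgb5 lead, Itgb7 is lowest, and Itgax moves from 1.71 to 2.99 in control to 6.06 to 12.7 in CSF1 OE mice, past Itga4 and Itgal.

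Several integrins had their extremes in the same libraries. Among the 4 control mice, 1934 had the lowest value in 7 of the 10 genes, and among the CSF1 OE mice 2019 had the highest in 6 of 10. The 12 endothelial markers summed to 1754 CPM in control 1934, the highest of all, and to 535 CPM in CSF1 OE 2019, the lowest. All 12 were lower in CSF1 OE mice (535 to 1217 against 1074 to 1754 CPM summed, median log2 fold change −0.68). None was called by edgeR, and Ly6c1 was called by DESeq2. At an unadjusted p under 0.05, 4 of these 12 markers were lower, beside 6.44% of all genes. With the mean of these markers as a covariate, the log2 fold changes of Itgam and Itgb5 turned to −0.21 and −0.11, that of Itgb2 fell to 0.02, and that of Itgax was 1.64 (edgeR adjusted p = 0.0540).

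**Figure D5:**
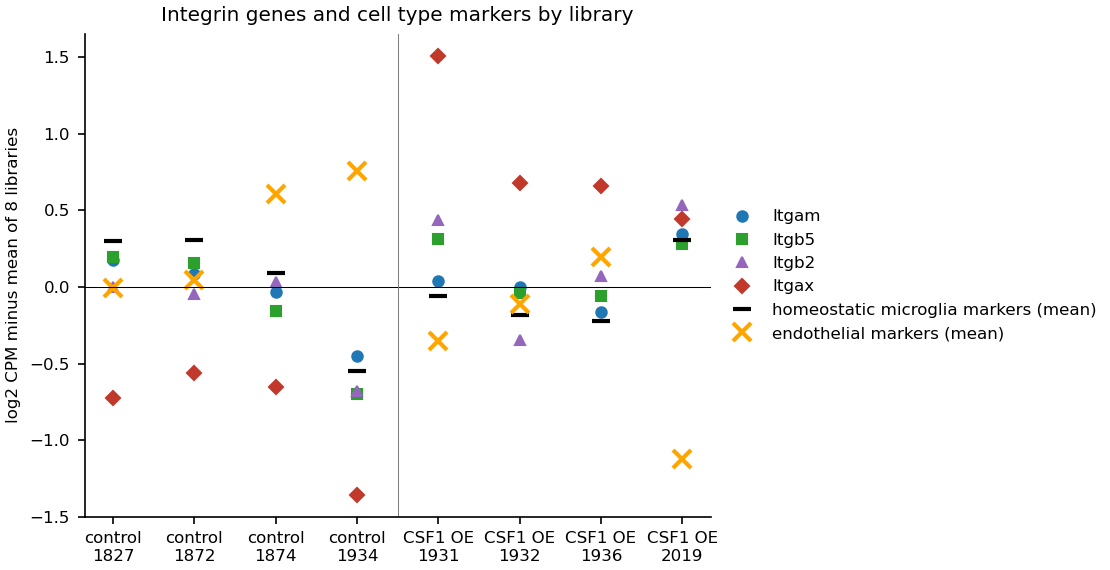
Log2 CPM of Itgam, Itgb5, Itgb2 and Itgax and the mean log2 CPM of the homeostatic microglia and endothelial markers, each minus its mean over the 8 libraries, by library. Itgam, Itgb5 and Itgb2 are lowest in control 1934 together with the microglia markers, where the endothelial markers are highest, whereas Itgax is above 0 in all 4 CSF1 OE and below 0 in all 4 control libraries.

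Over the 8 libraries, the pair of integrins whose centred log2 CPM differed least was Itgam and Itgb5, with a root mean square difference of 0.149. Itgav with Itgb1 (0.158) and Itgal with Itgb1 (0.161) came next. This measure is also small for genes that vary little, as Itgb1 did, so a small value need not mean a shared pattern. By the same measure, which looks for likeness to Itgax and so gives no independent evidence, the nearest of all genes tested were Smim3 (0.252), Bcl2a1a (0.308), Syt6 (0.317), Ly9 (0.330) and Isg15 (0.346). All 5 were higher in every CSF1 OE than in every control mouse. Smim3 (8.63 to 11.96 against 22.2 to 42.8 CPM) and the interferon-induced Isg15 (1.83 to 3.83 against 7.70 to 15.3 CPM) were called, with log2 fold changes of 1.61 and 1.85 (edgeR adjusted p = 0.0391 and 0.0431). Bcl2a1a, a relative of BCL2, Syt6 and the leukocyte receptor Ly9 were not called, with log2 fold changes of 1.85, 1.31 and 1.40 (edgeR adjusted p = 0.0558, 0.0558 and 0.0540).

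Other leukocytes also express Itgax, Itgal, Itga4 and Itgb7. Of their marker lists edgeR called 0 genes, beside 0.44% of all genes tested. Only 9 neutrophil, 8 monocyte, 2 T and NK cell and 1 B cell markers were tested, so 0 calls says little. The 9 monocyte markers summed to 1285 to 1913 CPM in control and 978 to 1204 CPM in CSF1 OE libraries, most of it from Nr4a1 and Fn1, which other cells express too. The defining monocyte genes Ly6c2 and Ccr2 were at 1.41 to 2.42 and 6.03 to 16.6 CPM in control mice and at 0.477 to 1.68 and 4.56 to 12.1 CPM in CSF1 OE mice. Plac8 had the one positive log2 fold change in that list, at 4.38 to 12.5 CPM in control and 13.8 to 37.7 CPM in CSF1 OE mice (log2 fold change 1.70, edgeR adjusted p = 0.0948), and DESeq2 called it. The 10 T and NK cell markers in the files summed to 13.2 to 20.2 and 10.1 to 15.5 CPM, most of it from Cd4. Of these markers, 5 had no more than 3 counts in every library, and 1 of the 5 was at 0. Klrb1c, a natural killer cell receptor, had 0.269 to 0.680 CPM in control and 0.955 to 2.05 CPM in CSF1 OE mice, highest in CSF1 OE 1931 as Itgax was (log2 fold change 1.53, edgeR adjusted p = 0.134). Cd4, the only other gene of that list that passed the filter, went the opposite way, at 11.9 to 18.6 CPM in control and 7.77 to 12.8 CPM in CSF1 OE mice (log2 fold change −0.75, edgeR adjusted p = 0.125), and DESeq2 called it lower. The 6 B cell markers summed to 7.995 to 19.7 and 12.2 to 16.3 CPM, with 3 and 1 in the same states. Most of this sum came from Cd79b, the only B cell marker that passed the filter. The 9 neutrophil markers in the files summed to 279 to 554 and 371 to 746 CPM, mostly from Csf3r, and 8 of them had a positive log2 fold change. The 10 border macrophage markers summed to 3003 to 4114 and 2157 to 3282 CPM, with 9 lower. None was called by edgeR, and 2 were called lower by DESeq2 (Cd163 and Clec10a). At an unadjusted p under 0.05, 1 was higher and 6 were lower, beside 10.1% and 6.44% of all genes. With the mean of the neutrophil, monocyte, T, NK and B cell markers as a covariate, the log2 fold change of Itgax was 1.57 (edgeR adjusted p = 0.0741). No list of dendritic cell markers was tested. Markers of oligodendrocytes, their precursors, astrocytes, neurons and mural cells overlapped between genotypes in their summed CPM, and none was called by edgeR, DESeq2 or limma. At an unadjusted p under 0.05 by edgeR, Gfap was higher, and Opalin and Acta2 were lower. Gfap, the astrocyte marker of the cells among which a subset over-expressed CSF1, had 11.3 to 26.4 CPM in control and 18.1 to 49.9 CPM in CSF1 OE mice. These ranges overlapped (log2 fold change 0.88, edgeR adjusted p = 0.253).

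None of the other 16 integrin subunits was called by edgeR, DESeq2 or limma. Of these, 13 passed the filter, 3 higher and 10 lower in CSF1 OE mice, with a median log2 fold change of −0.19. At an unadjusted p under 0.05, 1 was higher (Itgad) and 2 were lower (Itga3 and Itgb4), beside 10.1% and 6.44% of all genes. The limit from stretches shared with Itgax, given above, applies to Itgad. The lowest log2 fold change was that of Itgae, the αE chain CD103, at −1.30 (edgeR adjusted p = 0.409). Itgae varied widely within a genotype, at 99.6, 23.4, 28.4 and 8.69 CPM in control and 15.9, 7.13, 8.79 and 33.5 CPM in CSF1 OE mice.

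Among 29 integrin ligands tested, 6 were higher and 23 lower, with none called by edgeR and a median log2 fold change of −0.33. At an unadjusted p under 0.05, 2 were higher and 6 lower, beside 10.1% and 6.44% of all genes. DESeq2 called Spp1 higher and Icam2 and Lama5 lower, and limma called none. The genotypes did not overlap for 2 higher (Spp1 and C3) and 2 lower ligands (Icam2 and Lama5), beside 6.84% and 3.45% of all genes. Spp1, osteopontin, a ligand of αV and α4 integrins, had the highest log2 fold change in the list, with 74.3, 61.9, 46.9 and 39.7 CPM in control mice and 164, 116, 99.3 and 85.3 CPM in CSF1 OE mice. The genotypes did not overlap, and its log2 fold change of 1.06 (SE 0.24) missed the threshold (edgeR adjusted p = 0.0858). At the other end was Icam5, a neuronal ligand of αL and β2, at 1.36 to 4.91 CPM in control and 0.493 to 2.86 CPM in CSF1 OE mice (log2 fold change −1.04, edgeR adjusted p = 0.405). Ligand genes are mostly those of vessels, glia and matrix, and the endothelial markers given above were lower too. Their part in the values of the ligands was not tested.

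Of the proteins that regulate integrin activation, in either direction, or tie integrins to actin, 27 were tested. Of these, 18 were higher and 9 lower, with none called by edgeR and a median log2 fold change of 0.13. At an unadjusted p under 0.05, 4 were higher and 3 lower, beside 10.1% and 6.44% of all genes. DESeq2 called Flna higher, and limma called none. The genotypes did not overlap for 1 higher (Flna) and 1 lower gene (Rasgrp2), beside 6.84% and 3.45% of all genes. Flna, filamin A, which binds β chain tails and competes there with talin, had 374, 319, 337 and 425 CPM in control mice and 604, 520.1, 499 and 537 CPM in CSF1 OE mice. These groups did not overlap, and the log2 fold change of 0.57 (SE 0.11) had an edgeR adjusted p of 0.0584. Rasgrp2, an activator of RAP1 upstream of integrins, had the lowest log2 fold change, at 2.97 to 4.55 CPM in control and 1.64 to 2.93 CPM in CSF1 OE mice (log2 fold change −0.60, edgeR adjusted p = 0.290). Among 23 kinases, exchange factors and GTPases of integrin signalling, 17 were higher and 6 lower, with a median log2 fold change of 0.18. None was called by edgeR, DESeq2 or limma, and 3 were higher at an unadjusted p under 0.05 by edgeR, beside 10.1% of all genes. The GTPase Rac2 (log2 fold change 0.40, edgeR adjusted p = 0.191) and the adaptor Bcar1 (−0.57, edgeR adjusted p = 0.476) were the extremes of this list.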

How the data were processed

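The authors aligned the reads with Bowtie 1.0.0 to mm10 and estimated expected counts per gene with RSEM 1.2.7, and these were deposited for each mouse (versions from the submitters' processing notes). Which annotation and strand setting they used is not given in the sources used here. The authors also deposited a normalized signal, the same counts divided by 1 size factor per library, which entered 1 alternative. EBSeq, the study's test, was not run.

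Rounded counts were tested with edgeR 4.0.16 under R 4.3.3 (TMM, filterByExpr, glmQLFit, glmQLFTest), with Benjamini-Hochberg adjustment over all 13407 genes. DESeq2 1.42.0 and limma 3.58.1 served as alternatives. The method was also run on simulated independent counts with 200 genes changed 2-fold, and the outcome is not given here. That simulation held no difference in cell composition or in the range of animal numbers, so it is no check on either. Log2 CPM used a prior count of 2. Levels per kilobase used the longest principal transcript of GENCODE M21 (GRCm38). Of 20308 symbols, 19325 were found there. The ratio of Itgax to Itgam was tested by a two-sided exact permutation test over 70 assignments. Replicates are separate mice.

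The integrins, the lists and the tests were chosen with earlier results of these data known. The rule named all 10 integrins, the extremes of each list and the 5 genes closest to Itgax. Further genes were named after their values were seen. Of the extremes of the cell type lists, values are printed only for the monocyte list, the T and NK list and Gfap of the astrocyte list.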

Additional observations from a re-analysis of the deposited data

Results flagged for a closer look

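Among 156 sets of 4 mice examined for a value far from the other 3 of its genotype, by Dixon's test at the 95% level, 6 had one. Chance alone gives about 1 in 20, so these 6 are no more than chance would give. Itgax in CSF1 OE 1931 was at 51.4 CPM, with the other 3 CSF1 OE mice at 24.5 to 28.9. Itgb2 in control 1934 was at 172 CPM, with the other controls at 266 to 280.5. The ratio of Itgal to Itgam per kilobase was 0.0080 in control 1934, with the other controls at 0.0062 to 0.0065. Outside the 10 integrins, Itga5, the α chain of the fibronectin receptor, was at 78.3 CPM in CSF1 OE 1931, with the others at 41.4 to 45.9. Itga11, a collagen receptor chain, was at 2.01 CPM in control 1934, with the others at 0.605 to 0.830. Klrb1c, a natural killer cell receptor, was at 2.05 CPM in CSF1 OE 1931, with the others at 0.955 to 1.02.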

How the results depend on the processing

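Of the 10 integrins, 1 was called in the reported fit and also with DESeq2, without the filter, with at least 10 counts in every library, with the robust prior, with limma, at any fold change, with the homeostatic microglia covariate and without control 1934 and CSF1 OE 2019 together, the last 2 chosen after seeing the data. None (0) was called with upper-quartile factors (Itgax adjusted p = 0.0530 by edgeR), with the endothelial or the blood leukocyte covariate, or at an adjusted p under 0.01. With the term for the range of animal numbers 2 were called, and 1 other integrin subunit. Leaving out 1 mouse gave 0 to 1. The count over all genes, 59, became 424 with DESeq2, 19 with upper-quartile factors, 104 with limma, 1273 with the range term, 189 with the endothelial, 12 with the leukocyte and 521 with the microglia covariate, 3 at an adjusted p under 0.01, 166 without control 1934 and CSF1 OE 2019, and 3 to 164 without 1 mouse, lowest without control 1872 or 1874 and highest without control 1827. The cause was not tested.

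The signs of uncalled integrins near 0 turned. Itgam was −0.21 with the endothelial covariate, −0.11 without both mice and −0.0030 to 0.18 without 1 mouse, negative there without CSF1 OE 2019. Itgb5 was −0.11 with the endothelial covariate. Itgal was −0.0075 with upper-quartile factors, −0.0034 with limma, −0.023 without both mice, and −0.077 to 0.12 without 1 mouse, negative there without control 1934 (−0.029), CSF1 OE 1932 (−0.077) and CSF1 OE 1936 (−0.017). The log2 ratio of Itgax to Itgam ranged from 1.32 to 1.78 when 1 mouse was left out, with exact permutation p of 0.0571 without control 1827 or 1934 and 0.0286 otherwise. Without control 1934 and CSF1 OE 2019 it was 1.73 (exact permutation p = 0.1, the smallest that 3 against 3 allow). No paired analysis was possible because the labels give each mouse its own animal number and share none between genotypes. Few counts limit Itgb7 and Itgad, and stretches shared with Itgax limit Itgad further.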
